A study of Homo sapiens with 5 samples.

Results

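The genes described here encode U1 small nuclear RNA, and they are the 5 rows RNU1-1, RNU1-2, RNU1-3, RNU1-4 and RNVU1-7 of the 2694 genes listed in the RNA sequencing of TC28a2 cells. They were chosen by their values in the comparison of the media itself, as short non-coding RNAs with a higher mean in hypertrophic medium, unlike the small nucleolar RNAs (snoRNAs) of the same libraries. The comparison between media is therefore given for these genes as a description, with no test.

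TC28a2 is a human chondrocyte line, labelled as normal chondrocytes of costal cartilage, and total RNA was taken on day 5 from cells in growth medium (GM, n = 2 libraries) or hypertrophic medium (HM, n = 3). GM was high-glucose DMEM with 10% serum. In HM, serum was lowered to 1% and the cells received 1% insulin-transferrin-selenium (ITS), BMP-2 at 100 ng/ml, GDF-5 at 10 ng/ml, the thyroid hormone T3 at 1 µM, ascorbic acid at 50 µg/ml, dexamethasone at 10 nM and β-glycerophosphate at 10 mM. Both media contained antibiotics. All libraries come from a single cell line, and the media differ in serum and in each additive at once, so these cannot be told apart. The methods call replicates biological in general terms, without saying what separated these libraries, and the labels do not name separate cultures, so a p-value measures only the spread between these libraries, part of which may be technical. The deposited values are log2-transformed and scaled by RLE normalization, a median-ratio scaling of each library, and the read depth behind them is unknown.

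The listed genes appear to be those called between the media on these same 5 libraries, so each adjusted p printed here is conditional on that selection, was adjusted over the selected genes alone, and is no independent evidence of a change. They run from 1707 with a higher mean in HM to 987 with a lower one. Of the chondrocyte markers, 5 of 15 were listed, and all 5 rose in HM: SOX9 by 0.65, COL9A3 by 1.02, COL9A2 by 1.08, ACAN by 1.14 and COL2A1 by 1.53 (adjusted p from 0.000155 to 0.0027, limma). Of the osteoblast and fibroblast markers, 4 of 12 were listed, and COL1A1, PDGFRA, COL3A1 and LUM rose by 0.64, 0.97, 1.07 and 1.30 (adjusted p from 0.000294 to 0.014, limma). In bulk RNA a change in the number of cells of a kind and a change in RNA per cell cannot be told apart. Over all listed genes the Euclidean distance within HM was 14.61 between replicates 2 and 3, 16.69 between replicates 1 and 2 and 19.55 between replicates 1 and 3. HM replicate 3 was the HM library nearest to GM, at distances of 42.98 and 43.57 from the GM libraries, against 45.17 and 46.40 for HM replicate 2 and 51.02 and 52.10 for HM replicate 1.

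U1 RNA is the RNA part of the U1 small nuclear ribonucleoprotein, which opens the splicing of an intron by base pairing of its 5′ end with the 5′ splice site. The particle holds its own proteins, SNRNP70, SNRPA and SNRPC, and a ring of Sm proteins that closes around a short single-stranded site of the RNA. It also shields transcripts from premature cleavage and polyadenylation, and its genes are transcribed by RNA polymerase II without poly(A) tails.

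The RNA sequence is shown because it limits what the 5 rows can say apart from one another. Read from GRCh37, the build of hg19, RNU1-1, RNU1-2, RNU1-3 and RNU1-4 encode the same 164 bases. In the first sequence, as DNA letters, capitals mark bases 3 to 11, which pair with the splice site letters CAGGTAAGT, and the Sm site AATTTGTGG at bases 125 to 133. In the other, the capital marks the single base at which RNVU1-7 differs, T150C, with positions counted from the 5′ end of the RNA and the RNU1-1 base named first. That base lies in the 3′ stem-loop that follows the Sm site.
RNU1-1 to RNU1-4: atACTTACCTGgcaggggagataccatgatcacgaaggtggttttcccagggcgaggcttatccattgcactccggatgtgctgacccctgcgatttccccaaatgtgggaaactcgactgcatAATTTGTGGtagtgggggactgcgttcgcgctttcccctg
RNVU1-7: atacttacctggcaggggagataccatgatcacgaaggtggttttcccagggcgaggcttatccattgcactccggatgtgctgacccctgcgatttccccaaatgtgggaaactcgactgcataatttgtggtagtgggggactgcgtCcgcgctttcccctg

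The 4 RNU1 genes lie within 382022 bases of the short arm of chromosome 1. RNU1-1 is at chr1:16840617-16840780 on the minus strand, in no other gene annotated by GENCODE. RNU1-3 is at chr1:16993280-16993443 on the minus strand, over an exon of a long non-coding RNA on the other strand. RNU1-4 is at chr1:17067011-17067174 on the plus strand, in an intron of the annotated span of CROCC, a centrosomal protein gene, and over an exon of an antisense long non-coding RNA, and it also lies within the span, but in no exon, of a long non-coding RNA on its own strand. RNU1-2 is at chr1:17222475-17222638 on the plus strand, also in an intron of CROCC. RNVU1-7, a variant U1 gene, is at chr1:145969270-145969433 on the minus strand, on the long arm, with no other annotated gene over it.

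The RNA of RNU1-1 has 7 exact copies in GRCh37, the 4 members and 3 that are not listed (RNVU1-18 on chromosome 1 and the pseudogenes RNU1-27P and RNU1-28P on chromosome 14). The RNA of RNVU1-7 has 2 exact copies, the other at chr1:147511004-147511167 being annotated as RNVU1-9, which RefSeq gives as another name of RNVU1-7. Which locus the deposited row stands for is therefore uncertain. A read from within the mature RNA of an RNU1 gene cannot be assigned to a single copy, and how such reads were shared out is not given in the sources used here. The separate values of the 5 genes are thus uncertain, and they are not 5 independent measurements. Of 143 U1 genes and pseudogenes annotated in GENCODE, these 5 are listed.

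In the deposited values the U1 genes were above both GM libraries in HM replicates 1 and 2, and close to the GM level in HM replicate 3. This held for all 5 genes. The place of HM replicate 3 depends on the scaling. With each library centred on the snoRNA median, its U1 mean was 0.89 above the GM mean, and 5 of 5 genes had media without overlap.

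RNU1-1 had values of 6.81 and 6.77 in GM and of 7.70, 7.71 and 6.88 in HM replicates 1, 2 and 3. Its mean was 6.79 ± 0.033 (SD, n = 2) in GM and 7.43 ± 0.48 (SD, n = 3) in HM, a log2 difference of 0.64. HM replicate 3 was above the GM mean by 0.083, and the mean of HM replicates 1 and 2 by 0.91.

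RNU1-2 had values of 6.36 and 6.22 in GM and of 7.30, 7.41 and 6.43 in HM. Its means were 6.29 ± 0.0995 (SD, n = 2) and 7.05 ± 0.53 (SD, n = 3), and its log2 difference of 0.75 was the largest of the 5 genes. HM replicate 3 minus the mean of the other HM libraries was -0.92, larger in size than the difference between the media.

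RNU1-3 had values of 6.60 and 6.56 in GM and of 7.55, 7.60 and 6.68 in HM, with means of 6.58 ± 0.029 (SD, n = 2) and 7.27 ± 0.52 (SD, n = 3). The log2 difference was 0.69. The media did not overlap, but HM replicate 3 stood only 0.093 over the GM mean.

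RNU1-4 had values of 6.63 and 6.44 in GM and of 7.48, 7.55 and 6.60 in HM, with means of 6.53 ± 0.14 (SD, n = 2) and 7.21 ± 0.53 (SD, n = 3). The log2 difference was 0.68. Here the media overlapped, because HM replicate 3 lay between the GM libraries.

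RNVU1-7 had values of 5.59 and 5.51 in GM and of 6.45, 6.58 and 5.71 in HM, with means of 5.55 ± 0.055 (SD, n = 2) and 6.25 ± 0.47 (SD, n = 3). The log2 difference was 0.69, next to that of RNU1-3. The row of this variant gene on the other arm showed the same order of libraries by medium. HM replicates 1 and 2 were highest and HM replicate 3 was just above GM. Its RNA differs only by the T150C base, so reads that do not cover it match the RNU1 genes too. The likeness is therefore no independent support for the pattern.

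**Figure D1:**
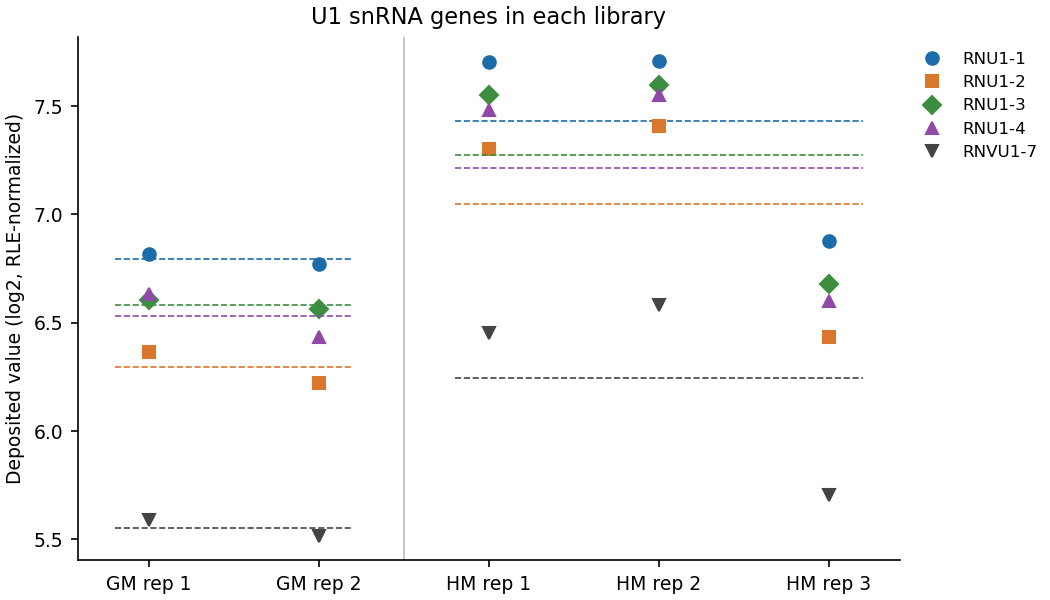
Deposited log2 value of each U1 gene (vertical axis) in the 2 GM and 3 HM libraries (horizontal axis), with dashed lines at each gene's mean in a medium. HM replicates 1 and 2 lie above GM for all 5 genes, and HM replicate 3 lies near the GM level.

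For 4 of the 5 U1 genes the HM libraries all lay above the GM libraries. Over all listed genes 99% had media that did not overlap, in either direction, and only 27 of 2694 genes overlapped, RNU1-4 among them. The limma fit called 99% of all rows at an adjusted p under 0.05 (62.5% higher and 36.5% lower in HM), so the list offers no set of unchanged genes against which to read the members. Of the 2694 listed genes, 1646 had a larger absolute difference than RNU1-1, the smallest of the U1 differences of 0.64 to 0.75. The signed median over all listed genes, 0.56, mixes 1707 rises with 987 falls and is no typical size of change. The U1 differences exceeded the SD of the same gene in HM, 0.47 to 0.53. That SD was reached or passed by 96 listed genes, or 3.56%.

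Without HM replicate 3 the 5 differences were 0.91 to 1.06, and without HM replicate 2 they were 0.50 to 0.57. The scaling of the libraries mattered as well. Centring each library on its median over the listed genes lowered the median of all differences by 0.35, left 0.29 to 0.41 for the U1 genes, and left none of the 5 with media that did not overlap. In that scaling the U1 mean of HM replicate 3 fell below the GM mean, by a log2 difference of -0.15. It was above the GM mean by 0.079 under quantile normalization and by 0.89 with each library centred on the snoRNA median. The split of calls over all genes moved too, from 1683 higher and 984 lower to 845 and 987 under median centring, 1257 and 964 under quantile normalization and 1797 and 146 under centring on the snoRNAs. The listed genes are mostly higher in HM, so their median is not a neutral reference.

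Within a library the 5 rows kept nearly the same distances from one another. All are 164 bases long, so length does not enter their levels, but the split of reads among identical copies does, and the order below is that of the deposited rows and not of the activity of each locus. The order was RNU1-1, RNU1-3, RNU1-4, RNU1-2 and RNVU1-7 in 4 of 5 libraries. In GM replicate 1 RNU1-4 was above RNU1-3, by a difference of 0.027. Their level difference, RNU1-3 minus RNU1-4, averaged 0.058 ± 0.056 (SD, n = 5), a mean about as large as its SD, and ranged from -0.027 to 0.13, so the order of these neighbours was not the same in every library.

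RNU1-1 was above RNU1-3 in 5 of 5 libraries, by a log2 level difference of 0.11 to 0.21. RNU1-4 was above RNU1-2 in 5 of 5, by 0.15 to 0.27. RNVU1-7 was lowest throughout, 0.71 to 0.85 below RNU1-2. Measured from the mean of the 5 genes in each library, the offset of a gene varied by an SD of 0.025 to 0.045 over the 5 libraries (n = 5), against SDs of 0.47 to 0.53 for the values themselves in HM. The rows moved as a block, and whether reads shared between them set this was not tested.

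The comparison with the snoRNAs, which guide the modification of ribosomal and other RNAs and are mostly cut from introns, was made within each library, where a scaling of the whole library cancels. Their lengths differ from that of U1, so only the change of the gap is read, not its size. The mean of the 5 U1 genes was 6.40 and 6.30 in GM and 7.30, 7.37 and 6.46 in HM replicates 1, 2 and 3. The median over the 117 snoRNA rows was 6.68 and 6.67 in GM and 5.90, 6.09 and 5.89 in HM.

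The gap, U1 mean minus snoRNA median, was therefore -0.28 and -0.36 in GM and 1.40, 1.28 and 0.57 in HM. Its mean was -0.32 ± 0.058 (SD, n = 2) in GM and 1.08 ± 0.45 (SD, n = 3) in HM, a change of 1.41 on the log2 scale. The gap did not overlap between the media, and its change, HM minus GM, was 1.25 to 1.67 with each library left out in turn. This contrast chose the genes, so no test is given. In HM replicate 3 the U1 mean was near that of GM, and the snoRNA median was the lowest of the 5 libraries.

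**Figure D2:**
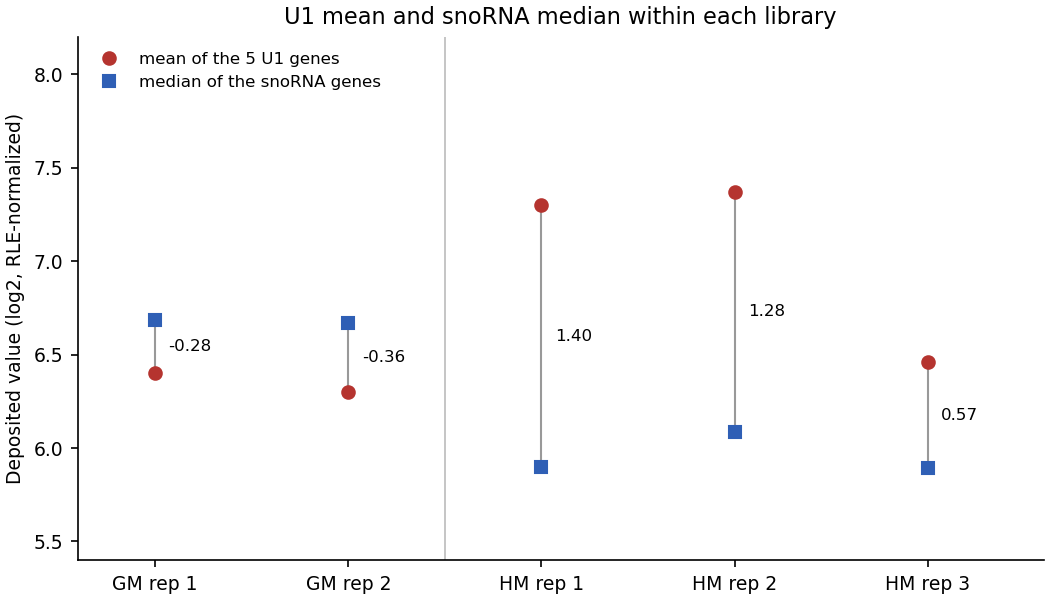
Mean of the 5 U1 genes and median of the 117 snoRNA genes (deposited log2 value, vertical axis) in each library, joined by a line labelled with the gap, U1 minus snoRNA. The gap is -0.28 and -0.36 in GM and 1.40, 1.28 and 0.57 in HM.

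The step within HM was far smaller in the snoRNAs. HM replicate 3 minus the mean of HM replicates 1 and 2 was -0.81 to -0.92 for the U1 genes, -0.11 at the median of the snoRNA rows and -0.10 at the median of all listed genes. The lowest snoRNA value of this measure was -0.39. A step at or below -0.81, the smallest in size among the U1 genes (RNVU1-7), was seen in 25 listed genes, or 0.928%, of which 5 were the U1 genes, 0 were snoRNAs and 3 were mitochondrially encoded.

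All 74 C/D box snoRNA rows fell in HM, from SNORD79, SNORD49A and SNORD101 (-0.90, -0.87 and -0.84) to SNORD1A, SNORD91B and SNORD1B (-0.29, -0.30 and -0.31), with a median of -0.58. All 43 H/ACA box rows fell, from SNORA24, SNORA50C and SNORA65 (-1.03, -0.97 and -0.93) to SNORA69, SNORA58B and SNORA91 (-0.24, -0.32 and -0.33), with a median of -0.64. The named rows of both kinds that fell least were low in level, with GM means from 3.00 (SNORA69) to 5.02 (SNORA58B). Those that fell most had GM means from 6.46 (SNORD101) to 8.49 (SNORA24). Whether a low level limits the size of a fall was not tested. Each of these rows had an adjusted p under 0.05 (limma), as did 99% of all listed genes, so the calls do not set the snoRNAs apart. Centring each library on the snoRNA median adds 0.72 to every difference. The snoRNA median of a library then no longer shifts by construction, and the U1 differences became 1.35 to 1.47. Under that scaling, any fall named here that is smaller in size than 0.72 turns into a higher value. Examples are WDR77, SNHG16, TRNC and the pseudogene copies. Many snoRNA rows turn as well, because the median of their own differences was -0.60.

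Other short or snoRNA-linked RNAs were also lower, while of all 2694 listed genes 987 had a lower mean in HM. The small Cajal body RNAs, which guide modification of spliceosomal RNAs, had 6 of 6 listed rows fall (SCARNA8, SCARNA7, SCARNA16, SCARNA12, SCARNA6 and SCARNA9L), by log2 differences from -0.36 to -1.21. The snoRNA host genes had 11 of 11 fall, from -0.61 for SNHG16, -0.66 for SNHG19 and -0.67 for SNHG3 to -0.76 for SNHG1, -0.81 for GAS5 and -0.84 for SNHG8. Of the 29 rows named as microRNA genes, some of them host transcripts, 27 fell, with a median of -0.42, led by MIR17HG, MIR503HG and MIR1304 (-1.09, -0.94 and -0.90). MIR6124, with a low GM mean of 2.43, fell least, at -0.21. MIR1281 and MIR663AHG rose by 0.36 and 0.48 (adjusted p at most 0.0468 over the rows named, limma).

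BCYRN1, a short RNA made by RNA polymerase III, was the only listed gene of 17 other short non-coding RNAs, a list that includes the RNAs of RNase P and RNase MRP, 7SK and the Y RNAs. It fell by 0.75, from 8.91 and 8.91 in GM to 8.13, 8.15 and 8.19 in HM (adjusted p = 0.0011, limma). Pseudogene copies of U6, 7SK and 7SL RNA, named after their values were seen, were lower as well, RNU6-301P at -0.40, RN7SKP175 at -0.33 and RN7SL767P at -0.53 (adjusted p from 0.00161 to 0.0371, limma). None of them showed the U1 order of libraries. Of the replication-dependent histone genes, whose transcripts also lack poly(A) tails, 3 were listed and all 3 rose: H1-6 by 0.59, H2BC7 by 0.62 and H2BC6 by 0.78 (adjusted p from 0.000605 to 0.00681, limma). In these histone genes HM replicate 3 stayed with the other HM libraries, between -0.084 and 0.21 of their mean.

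The partners of U1 RNA were almost all outside the listed genes. Of the other spliceosomal RNA genes (U2, U4, U5, U6 and the minor spliceosome RNAs) 0 of 19 were listed, of the U1 proteins SNRNP70, SNRPA and SNRPC 0 of 3, of the Sm proteins 0 of 8 and of the U1-associated splicing factors 0 of 13. The Integrator complex, which cuts the 3′ end of snRNA transcripts, had 0 of 18. A gene that is not listed has no value here, so nothing can be said of its level in either medium.

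Of 19 genes for snRNA transcription, 2 were listed, and they moved in opposite directions. SNAPC1, a subunit of the complex that binds the promoters of snRNA genes, was 13.50 and 13.56 in GM and 12.74, 12.59 and 12.71 in HM, a difference of -0.85 (SE 0.11, adjusted p = 0.000231, limma). SP1, a general activator that binds GC-rich promoters, was 12.41 and 12.40 in GM and 13.20, 13.07 and 12.97 in HM, a difference of 0.68 (adjusted p = 0.00083, limma). In neither gene did HM replicate 3 stand at the GM level.

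Of 23 genes for the assembly and transport of snRNPs, only WDR77 was listed, a partner of the methyltransferase PRMT5 that modifies Sm proteins. It was 12.38 and 12.47 in GM and 11.86, 11.75 and 11.88 in HM, a difference of -0.59 (adjusted p = 0.00121, limma).

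The regions in front of the genes are shown to describe how alike the loci are, and their part in the U1 values was not tested. The 250 bases upstream were identical in RNU1-3 and RNU1-4, with 250 of 250 bases the same, and 99.2% identical between RNU1-2 and either of them. RNU1-1 shared 95.6% to 96.4% with these 3 genes, and RNVU1-7 shared 85.5% to 86.3% with the 4 RNU1 genes. In the GRCh37 sequences below, written 5′ to 3′ on the strand of the gene and ending at the base before the RNA, capitals mark the longest run that all 5 genes share, 32 bases, which starts 232 bases upstream in RNU1-1 and 230 in RNVU1-7.
RNU1-1, chr1, upstream: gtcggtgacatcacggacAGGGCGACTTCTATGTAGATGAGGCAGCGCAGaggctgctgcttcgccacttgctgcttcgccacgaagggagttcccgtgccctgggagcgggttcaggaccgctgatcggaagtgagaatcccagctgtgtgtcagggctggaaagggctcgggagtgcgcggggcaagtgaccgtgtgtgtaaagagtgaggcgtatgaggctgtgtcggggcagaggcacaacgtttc
RNVU1-7, chr1, upstream: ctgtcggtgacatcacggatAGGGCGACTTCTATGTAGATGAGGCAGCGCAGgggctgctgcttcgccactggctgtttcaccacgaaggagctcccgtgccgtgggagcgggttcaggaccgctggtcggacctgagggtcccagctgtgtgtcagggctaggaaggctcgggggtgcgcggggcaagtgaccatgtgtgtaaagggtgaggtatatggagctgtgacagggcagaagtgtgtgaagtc

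The octamer ATGCAAAT, a motif of snRNA enhancers, was searched on both strands from 250 bases before to 50 bases after the start, and 0 of the 5 genes held it in this exact spelling. In the RefSeq promoter windows of the same length, on GRCh38.p14, 623 of 35116 held it, or 1.77%. A missing match says only that these letters are not in this window.

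The nearest annotated genes did not give a local reference. Among the 5 nearest on each side of each U1 gene, 47 in all, 0 were listed.

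The genes whose pattern over the 5 libraries was closest to that of the U1 mean, after subtracting each gene's own mean, were C20orf96, ENG, RNF44, COX3 and NTN3. Their Euclidean distances were 0.17, 0.19, 0.19, 0.19 and 0.20, against at most 0.091 for a U1 gene itself, at least 1.71 for a snoRNA row and 0.88 at the median of all listed genes. C20orf96, the closest, had values of 8.62 and 8.59 in GM and of 9.60, 9.56 and 8.86 in HM. ENG, the TGF-β co-receptor endoglin, had 9.17 and 8.92 in GM and 9.84, 9.93 and 9.13 in HM, with its media overlapping as in RNU1-4.

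RNF44, a RING finger protein gene, had 9.19 and 9.01 in GM and 10.04, 9.95 and 9.29 in HM. NTN3, of the netrin family, had 4.34 and 4.31 in GM and 5.39, 5.23 and 4.55 in HM. COX3, a subunit of cytochrome c oxidase encoded in mitochondrial DNA, had 13.47 and 13.28 in GM and 14.19, 14.27 and 13.56 in HM. These 5 genes were picked for their likeness to U1, so high values in HM replicates 1 and 2 follow from the choice. In them HM replicate 3 was above the GM mean by 0.082 (ENG) to 0.26 (C20orf96), against 0.069 to 0.15 in the U1 genes.

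**Figure D3:**
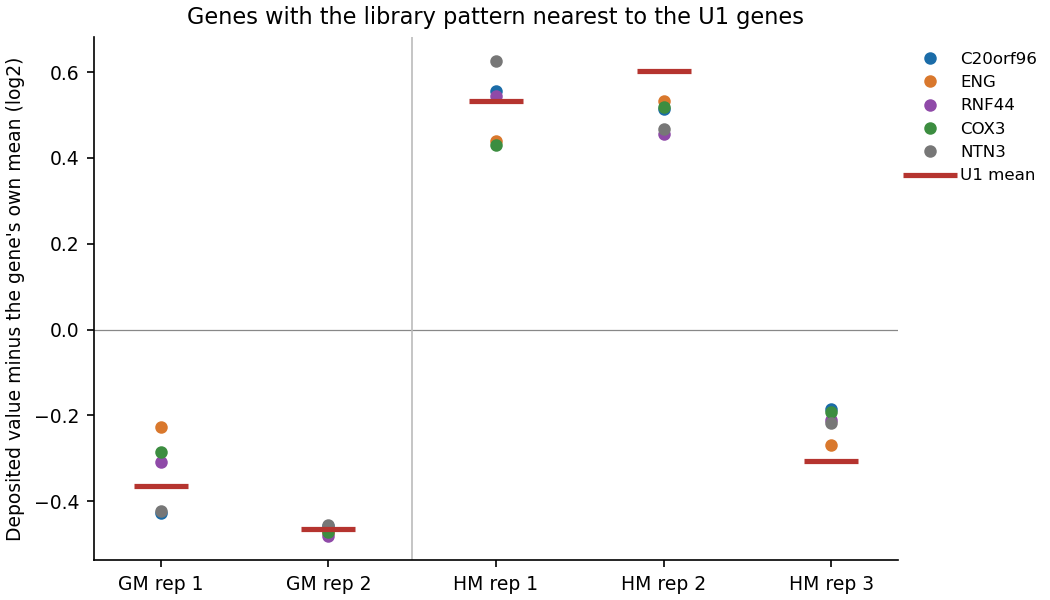
Deposited log2 value minus the gene's own mean over the 5 libraries (vertical axis) for the 5 genes nearest in pattern to U1 (points) and for the U1 mean (bars), in each library (horizontal axis). All lie high in HM replicates 1 and 2 and low in GM and in HM replicate 3.

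Because COX3 was among them, the other mitochondrially encoded genes were looked at after these values were seen. Of 37 such genes 11 were listed, 7 with a higher mean in HM and 4 with a lower one. That split is near the 1707 higher and 987 lower of all listed genes. In the 7 higher ones HM replicate 3 was below the mean of HM replicates 1 and 2 by a difference from -0.67 to -1.50, the range in which the U1 genes lie. The widest was RNR2, the large mitochondrial ribosomal RNA, with 9.73 and 9.30 in GM and 11.71, 11.23 and 9.97 in HM. The library kit is of a kind that removes ribosomal RNA, mitochondrial included, and how much of it was removed in each library was not measured here.

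Among the protein genes of this group COX1, COX2 and CYTB rose by 0.90, 0.93 and 0.84 and COX3 by 0.63 (adjusted p from 0.00317 to 0.0131, limma). The transfer RNA TRNS1 rose by 0.58 with overlapping media (adjusted p = 0.0329, limma), and ND3 had a difference of 0.56 that did not pass (adjusted p = 0.0526, limma). ATP8, ND6, TRNC and TRNN fell, by differences of -0.65, -0.93, -0.57 and -0.77 (adjusted p from 0.000694 to 0.00702, limma), and in these HM replicate 3 was within -0.30 of the other HM libraries. The part of mitochondrial RNA or of ribosomal RNA removal in the U1 values was not tested.

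**Figure D4:**
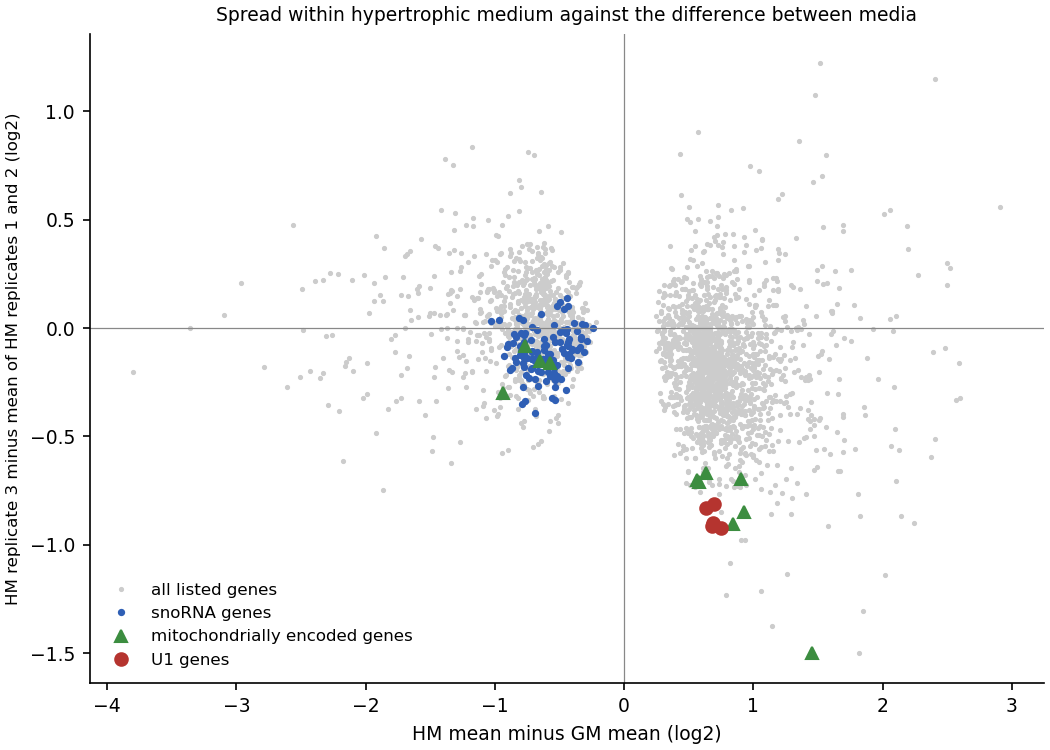
HM mean minus GM mean (horizontal axis, log2) against HM replicate 3 minus the mean of HM replicates 1 and 2 (vertical axis, log2) for all 2694 listed genes, with U1, snoRNA and mitochondrially encoded genes marked. The U1 genes lie between -0.81 and -0.92 on the vertical axis, below every snoRNA. They are within the range of the 7 mitochondrially encoded genes with a higher mean in HM. Of the 20 other listed genes at or below -0.81, 3 are mitochondrially encoded.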

How the data were processed

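Total RNA of TC28a2 cells was sequenced, from 2 GM and 3 HM libraries. The authors trimmed the reads, aligned them to hg19 with HISAT2 2.1.0, counted known NCBI transcripts with StringTie 2.1, left out genes with a zero count, and deposited log2-transformed, RLE-normalized values, 1 per gene and library. The submitters' processing notes name rn5, cutadapt 1.18, TopHat2 2.0.13 and Cuffdiff 2.2.1 instead. The listed human gene symbols go with hg19. Whether counting used strand, and how reads with several matching sites were handled, is not given in the sources used here.

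The media were compared with limma 3.58.1 (R 4.3.3; lmFit, eBayes with a mean-variance trend, no block) on the log2 values as deposited, with Benjamini-Hochberg adjustment over all 2694 genes, calls at an adjusted p under 0.05, no filter on low values and no pseudocount. The fit was tested on simulated data. Differences are HM minus GM and were not turned into folds, since the exact log2 transformation is not given in the sources used here. The U1 genes and the gene lists were chosen with earlier results of these data known. Named genes were the U1 genes, all listed members of lists with up to 10 in the files (otherwise the 3 highest and 3 lowest differences), and the 5 nearest in pattern. Sequences came from GRCh37 with GENCODE 44 lifted to it, and promoter windows from RefSeq. Alternatives were other scalings, a replicate block, no trend, leaving out the 25% of genes with the lowest means, and leaving out each library. Tests that need read counts were not run.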

Additional observations from a re-analysis of the deposited data

How the results depend on the processing

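Leaving out each library in turn gave differences of 0.50 to 0.91 for RNU1-1, 0.57 to 1.06 for RNU1-2, 0.53 to 0.99 for RNU1-3, 0.51 to 0.98 for RNU1-4 and 0.53 to 0.96 for RNVU1-7, all highest without HM replicate 3. No U1 difference changed sign under any alternative run. Centring on the snoRNA median gave 1.35, 1.47, 1.41, 1.40 and 1.41 for the same genes, which follows from adding the fall of the snoRNA median. It left 146 listed genes called lower and 47 of the 179 called genes of the fixed lists. Median centring left 845 genes called higher and 0 U1 genes without overlap, against 4 as deposited. Quantile normalization left 4 U1 genes without overlap, and centring on the snoRNA median left 5. Leaving out the 25% of genes with the lowest means left 653 called lower and 94 of the fixed lists, because fewer genes were tested. With the replicate number as a replicate block, HM replicate 3 no longer enters the difference, and the U1 differences were 0.91 to 1.06, the gap to the snoRNAs changed by 1.67, and 1685 genes were called higher, 980 lower and 177 of the fixed lists. The correlation of replicate 1 minus replicate 2 between the media was -0.025 over the listed genes, so the numbers do not pair the libraries. Depth is unknown, precision rests on 2 and 3 libraries, and the list holds apparently only called genes.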
